A study of Mus musculus with 20 samples.

Results

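The loci of Pou5f1, Sox2, Nanog and Esrrb, the core genes of the naive pluripotency network of mouse embryonic stem (ES) cells, held 45 of the 42403 GATA6-binding regions in which chromatin accessibility was measured by ATAC-seq. A region was taken as a member when its midpoint lay within 100 kb of the gene start of 1 of these genes (GENCODE vM21 on mm10: Pou5f1 at 35506018 of chromosome 17, Sox2 at 34650405 of chromosome 3, Nanog at 122707489 of chromosome 6 and Esrrb at 86361117 of chromosome 12, all on the plus strand). Nanog had 21 members, Pou5f1 11, Sox2 8 and Esrrb 5. Each is named here by its distance from the gene start, with a minus sign for upstream. The rule used position only, so no accessibility value chose the members.

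The ES cells were KH2 cells of a C57BL/6 x 129/Sv background, in which an integrated cassette expresses Gata6 when doxycycline is added (1 µg/mL). They grew with LIF on feeder fibroblasts. The study's methods describe removal of feeders by adsorption for RNA-seq and ChIP-seq, and its ATAC-seq method does not mention it. Groups were collected without doxycycline (d0, 3 samples) and at 8h and 16h (3 samples each). Others were collected at d1 and d2 (3 samples each) and at d4 (2 samples). XEN cells, an extraembryonic endoderm line (X10, CD1 background, 3 samples), served as the reference of differentiated cells. XEN cells also grew on feeders, but without LIF, without the cassette and without doxycycline. The treatment labels list 16, 24, 48, 72 and 96 h of doxycycline for the groups titled 8h, 16h, d1, d2 and d4, and the titles were used. The samples are independent cultures by the methods, which name more than 1 clone with the cassette; the clone of a sample was not given in the sources used here.

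GATA6 is a zinc-finger transcription factor that binds GATA motifs and drives primitive endoderm, the lineage that leaves the pluripotent epiblast in the blastocyst. OCT4 (encoded by Pou5f1) and SOX2 bind composite motifs together, NANOG and the orphan nuclear receptor ESRRB reinforce the same network, and all of them bind near their own and each other's genes in ES cells. ATAC-seq reads come from DNA that a transposase can cut, so a high value marks open chromatin. Values are RPM (reads scaled to a common library size), not divided by the width of a region, so levels of different regions were not ranked as densities.

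The members differed from the other GATA6 regions before any change was measured. Pluripotency transcription factors (PTFs: OCT4, SOX2 or ESRRB, by the deposited peak class) were bound at d0 at 23 of the 45 members (51.1%), against 20.8% of all regions. A further 8 were of the ectopic class, where PTFs bind during differentiation but not at d0 (17.8%, close to the 16.6% of all regions). The other 14 had no PTF (31.1%, against 62.6%). By the deposited classes, 10 members were accessible at d0 (22.2%, against 7.43% of all regions). The histone marks of active enhancers were at 15 (33.3%, against 11.2%) and those of promoters at 10 (22.2%, against 6.88%). GATA6 binding was transient at 26 members, including all 5 of Esrrb (57.8%, against 38.4% of all regions), and early at 18 (40.0%, against 28.0%). It was late at 1, Nanog -63.9 kb (2.22%, against 33.6%), so the background of all regions holds many late regions that the members lack. By the deposited class, GATA6 binding at 48 h fell on knockdown of Oct4 at 7 members (15.6%, against 6.25% of all regions) and rose at 0, against 8.57% of all regions. Among the 7 were 3 of the 5 Esrrb regions and Pou5f1 -2.0 kb.

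By position relative to protein-coding genes only, 25 members were intergenic, 15 intronic and 2 exonic. The other 3 contained a gene start: that of Nanog itself, that of Dppa3 (Nanog -81.0 kb) and that of Sfta2 (Pou5f1 +95.7 kb). The member gene was the nearest protein-coding gene start for 26, among them all 8 of Sox2 and all 5 of Esrrb. The Nanog regions from +35.0 to +78.4 kb lay within Slc2a3, a glucose transporter gene. All 5 Esrrb regions were intronic, and the Sox2 regions all lay outside protein-coding genes.

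The deposited motif matches show what the regions carry. Matches to the GATA6 matrix are printed for 4 regions that gained accessibility by d4 and 3 that lost it, from the mm10 sequence (GRCm38.p6, plus strand), with the match in capitals and 25 bases on either side.
Pou5f1 -19.9 kb (chr17:35486034-35486096): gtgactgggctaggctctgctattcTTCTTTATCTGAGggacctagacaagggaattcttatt
Sox2 +70.7 kb (chr3:34721086-34721148): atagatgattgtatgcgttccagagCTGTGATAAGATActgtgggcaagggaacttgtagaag
Nanog -63.9 kb (chr6:122643404-122643466): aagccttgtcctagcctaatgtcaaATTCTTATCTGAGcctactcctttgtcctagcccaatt
Nanog +65.4 kb (chr6:122773000-122773062): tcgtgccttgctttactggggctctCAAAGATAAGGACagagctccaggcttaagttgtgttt
Sox2 +84.9 kb (chr3:34734924-34734986): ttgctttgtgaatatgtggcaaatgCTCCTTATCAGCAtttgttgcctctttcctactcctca
Nanog gene start (chr6:122707325-122707387): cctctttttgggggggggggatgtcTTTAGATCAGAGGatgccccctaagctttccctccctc
Esrrb +34.3 kb (chr12:86395394-86395456): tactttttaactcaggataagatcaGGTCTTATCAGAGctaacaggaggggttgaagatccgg
The first 4 matches scored 8.82, 11.4, 14.1 and 12.6, and the last 3 scored 10.3, 7.04 and 10.7. TTATC or GATAA stands in each of the 7 except the match of the Nanog gene start. The 7 are a choice among the members called at d4. Both are absent from the best matches of Nanog +44.3 kb, called higher, and of Pou5f1 -0.9 kb and Nanog -81.0 kb, called lower. The best matches of Nanog +74.3 and +78.4 kb, called higher, and Sox2 -4.0 kb, called lower, hold GATAA or TTATC. Sox2 +18.3 kb and Nanog +63.1 kb, called lower, had no GATA6 match. Of the 7 members that passed the test for a rise at d4 (given below by locus), the median best GATA6 score was 12.6; of the 8 that passed for a fall, 6 had a match and their median score was 9.43. Over all regions that rose or fell in the same test the medians were 9.91 and 9.35. Best scores were not adjusted for region width. The letters AGATAA near the GATA6 summit gave another picture. They stood in 3 of the 7 rises (42.9%), against 54.4% of all regions that rose. Of the 8 falls they stood in 1 (12.5%), against 35.5% of all regions that fell.

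Matches to the OCT4:SOX2 matrix are printed for 5 members bound by PTFs at d0, with the match in capitals on the plus strand, as their accessibility is followed below.
Pou5f1 -2.0 kb (chr17:35504024-35504088): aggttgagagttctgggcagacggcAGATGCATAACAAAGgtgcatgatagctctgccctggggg
Pou5f1 -0.9 kb (chr17:35504744-35504808): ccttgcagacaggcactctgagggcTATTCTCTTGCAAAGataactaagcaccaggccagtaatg
Sox2 +18.3 kb (chr3:34668595-34668659): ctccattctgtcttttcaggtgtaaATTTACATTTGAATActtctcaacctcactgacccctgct
Nanog gene start (chr6:122707388-122707452): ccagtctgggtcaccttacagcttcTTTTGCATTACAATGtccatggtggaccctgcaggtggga
Nanog +44.3 kb (chr6:122751835-122751899): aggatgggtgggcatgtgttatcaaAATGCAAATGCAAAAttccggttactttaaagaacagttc
The match at the Nanog gene start had the highest score of any member, 17.7, and matches at Pou5f1 -2.0 kb, Pou5f1 -0.9 kb and Sox2 +18.3 kb scored 13.6, 12.8 and 13.0. The match at Nanog +44.3 kb scored 7.65. The median over the 35 members with a match was 7.79, against 8.17 over all regions with a match. The ESRRB match of Pou5f1 -19.9 kb, TGACCTTGA in the reverse reading of TCAAGGTCA, scored 16.9.
Pou5f1 -19.9 kb (chr17:35485901-35485961): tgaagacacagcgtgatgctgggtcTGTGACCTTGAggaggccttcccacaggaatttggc
In windows of 201 bases centred on the GATA6 summit, AGATAA on either strand stood in 21 of the 45 members (46.7%), against 54.3% of all regions. AACAAT, the SOX letters, stood in 4 members (8.89%, against 21.6%), ATGCAAAT, the OCT octamer, in 1 (2.22%, against 2.997%), and TCAAGGTCA, the ESRRB letters, in 3 (6.67%, against 1.16%).

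Single libraries were recovered from the deposited group averages for every group but d0, since each average is a sum of whole reads of its libraries. This gave 3 libraries each for 8h, 16h, d1 and d2, and 2 each for d4 and XEN, although 3 XEN samples are labelled. Letters A to C only name the libraries of a group. Library sizes were 181 to 288 M reads, except XEN library B with 43.3 M, where 1 read is worth 0.0231 RPM and a region without a read also shows 0.0231 RPM because 1 read had been added to every region. Among the 8h libraries, the total RPM in the regions ranged from 3706 in library C to 6938 in library B. Changes were tested against 8h, the earliest group with libraries, by limma, and called where the adjusted p was below 0.05 and the size of the change exceeded 1 (log2(RPM + 0.03), the scale of every change given here). The whole set of GATA6 regions shifted upwards: the median change of all regions against 8h was 0.64 at d2, 0.51 at d4 and 0.39 in XEN cells. A member can therefore rise in RPM and still lag behind the other regions. Both readings are given for the counts at d4 and for some of the regions where they part.

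Against d0, the averaged columns of the 45 members showed 0 past 2-fold in either direction at 16h (background 0.00236% each way), 2 higher and 0 lower at d1, then 15 higher and 2 lower at d2, and 6 higher and 10 lower at d4. The background over all regions was, for later groups, 4.55% higher and 0.00707% lower at d1, 36.8% and 1.41% at d2, and 31.0% and 7.27% at d4. The members stood close to the background for rises at d2 (33.3%), below it for rises at d4 (13.3%) and above it for falls at d4 (22.2%). Their median change was 0.59 at d2 and -0.13 at d4, against 0.69 and 0.52 over all regions. In XEN cells 2 were higher and 12 lower (4.44% and 26.7%, against 27.7% and 8.83%), with a median of -0.56 against 0.40. An averaged column holds no spread, so these counts carry no test.

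**Figure D1:**
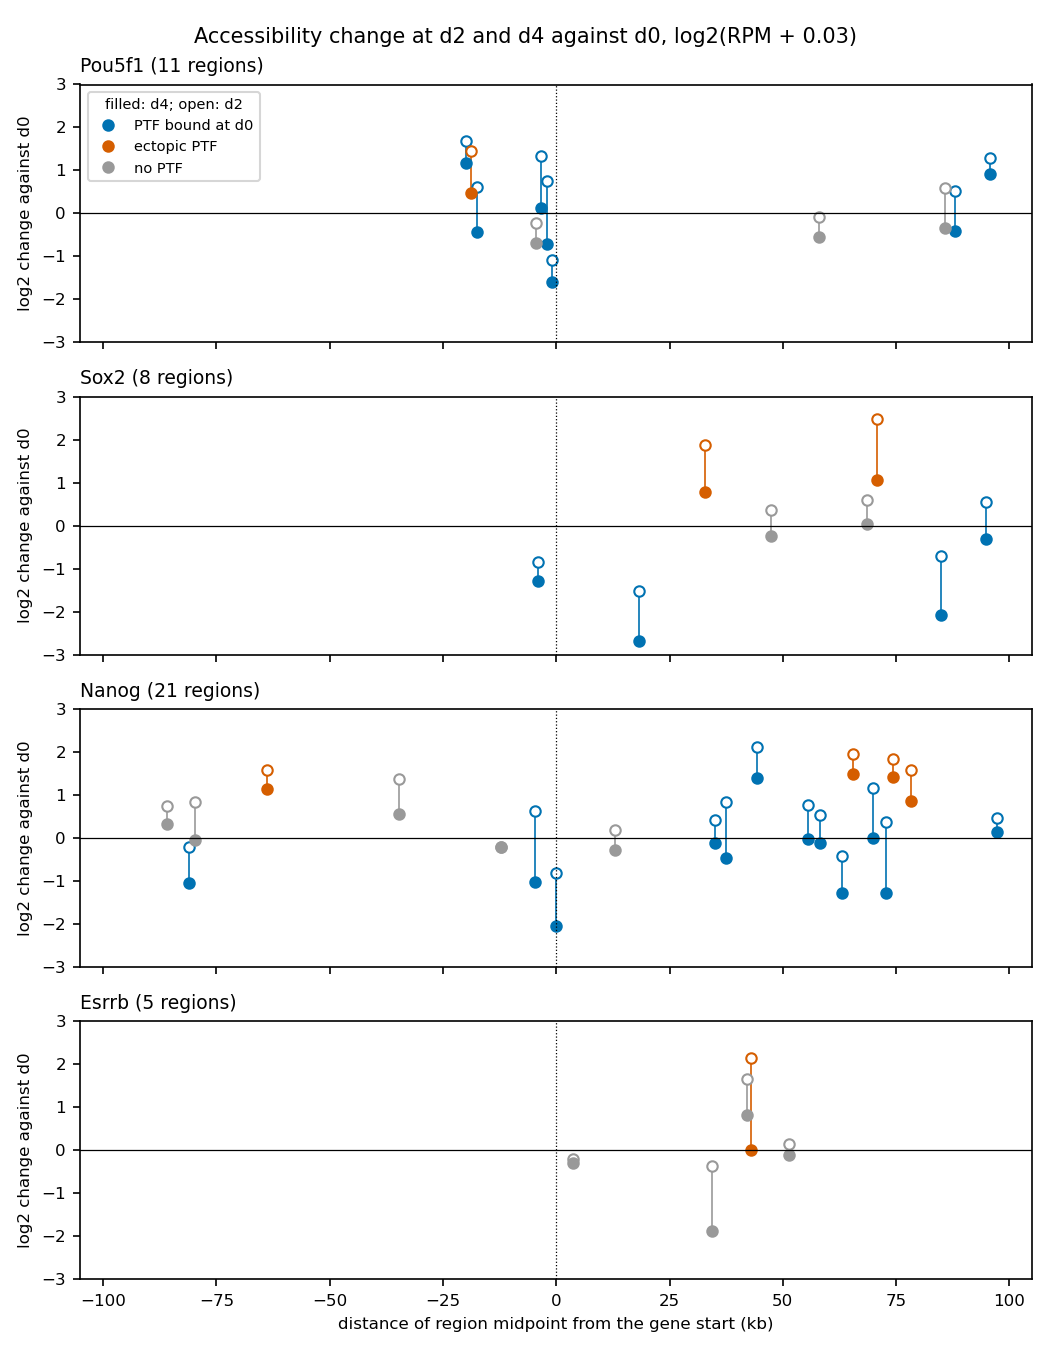
Change of accessibility against d0 (log2(RPM + 0.03) of the group averages, vertical axis) by distance of the region midpoint from the gene start (kb, horizontal axis), 1 panel per locus, open circles for d2 and filled circles for d4 joined by a line, coloured by the deposited PTF class. At 15 of the 45 members the open circle lies above 1, and at 10 the filled circle lies below -1, among them the region at the Nanog gene start.

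Tested over libraries, 0 of 41 members passed for 16h against 8h, as did 0 of all 41568 regions tested (0%), while 2 members and 2671 regions had an unadjusted p under 0.05. At d1, 1 of 44 rose, Sox2 +70.7 kb (background 5.55%), and 0 fell (background 0.0143%). At d2, 11 of the 39 testable members rose (28.2%, background 35.3%) and 2 fell (5.13%, background 1.17%). At d4, 7 of 45 rose (15.6%, background 31.1%) and 8 fell (17.8%, background 6.42%). By the deposited GATA6 class, the rises were at early regions except Nanog -63.9 kb, which was late. The falls were at transient regions except Sox2 -4.0 kb, which was early. Late regions make up 33.6% of the background and 2.22% of the members, and the background given here is not matched for this class. Without regard to a test, the d4 libraries lay wholly above those of 8h in 11 members (background 49.3%) and wholly below in 16 (background 14.2%), and the d2 libraries in 18 (background 48.9%) and 7 (background 4.96%) of 39. For 16h the same held for 1 (background 5.64%) and 1 (background 2.06%) of 41, Sox2 +70.7 kb above and Esrrb +51.3 kb below. Between d2 and d4 the members moved down: 0 of 39 rose (background 2.21%) and 11 fell (28.2%, background 8.53%), and in 31 of 39 the d4 libraries lay wholly below the d2 libraries (background 35.4%). The 6 members that could not be tested at d2 all belong to Pou5f1. These counts moved with single libraries: without 8h library B, 5 members rose at d1 (9.67% of all regions in the same fit) and 0 fell at d2 (0.502% of all), and 3 rose at d1 without d1 library A (7.56% of all). For d4 against d2, 1 or 2 fell when d4 library A or B was left out, which leaves 1 library at d4 (1.32% and 1.28% of all regions), and 4 or 6 without d2 library C or B (4.21% and 3.63%).

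The counts at d4 were also taken on other scales. When each library was centred on its median over all regions, which takes 0.55 off every change at d4 and so by construction adds falls and removes rises, 14 members fell (background 15.7%) and 1 rose (background 16.2%). Under quantile normalisation 15 fell (background 15.6%) and 1 rose (background 15.7%). The 8 falls were called under both, and of the 7 rises Sox2 +70.7 kb was. Relative to the median of all regions, 33 of the 45 members were low at d4. Without 8h library B, the 8h library with the most RPM in the regions, 10 rose (background 35.5%) and 5 fell (background 4.32%), and the 5 were Pou5f1 -0.9 kb, Sox2 +18.3 kb, Sox2 +84.9 kb, the Nanog gene start and Esrrb +34.3 kb.

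At Pou5f1, which encodes OCT4, 1 of 11 regions rose and 1 fell at d4 (31.1% and 6.42% of all regions). Pou5f1 -2.0 kb (chr17:35503643-35504431) covers the distal enhancer and Pou5f1 -0.9 kb (chr17:35504680-35505611) the proximal enhancer, the elements known to drive the gene in naive and in primed pluripotency. Pou5f1 -0.9 kb averaged 0.744 RPM at d0 and 0.337 at d2. Its libraries read 0.680, 0.846 and 0.560 RPM at 8h, 0.363, 0.272 and 0.378 at d2, and 0.211 and 0.240 at d4. All d2 and d4 libraries lay below all 8h libraries. The change at d4 was -1.49 ± 0.39 (SE; limma, adjusted p = 0.000703), and at d2 it was -0.98 ± 0.35, short of the fold required (limma, adjusted p = 0.013). When centred, the d2 change was -1.75 and called lower (limma, adjusted p = 1.7e-11).

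Pou5f1 -2.0 kb took a different course. It averaged 0.757 RPM at d0, 1.04 at d1 and 1.30 at d2, its highest level, before 0.450 at d4 and 0.218 in XEN cells. The 8h libraries read 0.722, 1.02 and 0.622 RPM and the d4 libraries 0.467 and 0.433, below all of them. The change was -0.74 ± 0.40 (SE; limma, adjusted p = 0.11), which was not called on the RPM scale and was called on the centred scale (-1.29, limma, adjusted p = 6.62e-06). In XEN cells, at 0.135 and 0.300 RPM, it was lower than at 8h (-1.78 ± 0.40, limma, adjusted p = 5.6e-05).

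Of the upstream regions, those at -19.9, -18.9 and -3.4 kb rose from 0.478, 0.391 and 0.432 RPM at d0 to 1.61, 1.13 and 1.14 at d2 in the averages, with no library values at d2. Between them, Pou5f1 -17.5 kb changed by 0.82 at d2 against 8h (limma, adjusted p = 0.042). Pou5f1 -4.5 kb changed by -0.44 (limma, adjusted p = 0.25). Neither was called, and when centred the changes were 0.047 and -1.21, the latter called lower. Pou5f1 -19.9 kb (chr17:35485624-35486513), which holds the ESRRB match printed above, read 0.403, 0.724 and 0.404 RPM in the 8h libraries, and 1.18 and 1.05 in those of d4. It was the only Pou5f1 region called higher at d4 (1.13 ± 0.40 SE, limma, adjusted p = 0.013). This rise was not called after centring (0.58, limma, adjusted p = 0.050), and its XEN libraries, 0.246 and 0.208 RPM, lay below those of 8h. The levels at -18.9 and -3.4 kb returned to 0.555 and 0.477 RPM at d4.

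At Sox2, whose product pairs with OCT4 on the composite motif, 3 of 8 regions fell and 1 rose at d4 (6.42% and 31.1% of all regions). Sox2 +18.3 kb (chr3:34668499-34668833), with a strong OCT4:SOX2 match and no GATA6 match, showed the largest fall of any member in the averages, from 0.361 RPM at d0 to 0.0313 at d4. Its libraries read 0.211, 0.343 and 0.233 RPM at 8h, 0.105, 0.129 and 0.0872 at d2, and 0.0251 and 0.0374 at d4. The groups did not overlap and the order of 8h, d2 and d4 held in every library. The change was -1.08 ± 0.34 at d2 (SE; limma, adjusted p = 0.0039) and -2.23 ± 0.38 at d4 (limma, adjusted p = 5.3e-08).

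Sox2 +84.9 kb (chr3:34734740-34735800) read 0.506, 0.649 and 0.394 RPM at 8h, 0.253, 0.286 and 0.315 at d2, and 0.0904 and 0.0908 at d4. The fall of -2.15 ± 0.39 at d4 (SE; limma, adjusted p = 3.9e-07) left both d4 libraries below every d2 library. Sox2 -4.0 kb (chr3:34645872-34646868), the member nearest the gene start and the site of a known upstream regulatory element of Sox2, read 0.164, 0.367 and 0.185 RPM at 8h and 0.0854 and 0.107 at d4 (-1.02 ± 0.38 SE, limma, adjusted p = 0.018). Without 8h library B this last change was -0.70, under the fold required.

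Sox2 +70.7 kb (chr3:34720897-34721344) moved the other way and reversed. This region was closed at d0, with constitutive heterochromatin marks by the deposited class, and of the ectopic PTF class; its GATA6 binding fell on Oct4 knockdown. Its libraries read 0.0703, 0.0470 and 0.0285 RPM at 8h, 0.268, 0.139 and 0.104 at 16h, 0.226, 0.346 and 0.204 at d1, 0.441, 0.586 and 0.755 at d2, and 0.191 and 0.219 at d4. Every library from 16h to d4 was above every 8h library. The change was 1.88 ± 0.34 at d1 (SE; limma, adjusted p = 8.2e-05), 2.99 ± 0.34 at d2 (limma, adjusted p = 9.0e-17) and 1.61 ± 0.38 at d4 (limma, adjusted p = 0.00012). From d2 to d4 it fell by 1.38 (limma, adjusted p = 0.0071), and the XEN libraries read 0.0590 and 0.0231 RPM, the latter being a region without a read. Sox2 +32.9 kb, also closed at d0 and of the ectopic class, rose by 2.04 ± 0.34 at d2 (limma, adjusted p = 1.6e-08) from 0.108, 0.0940 and 0.0570 RPM at 8h to 0.341, 0.581 and 0.426, and stood at 0.196 and 0.198 at d4.

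Sox2 +94.9 kb had the highest mean of the locus. Its libraries read 0.520, 0.813 and 0.375 RPM at 8h and 0.422 and 0.534 at d4, which overlap, and the change of -0.18 ± 0.40 (SE; limma, adjusted p = 0.73) changed sign without 8h library B. In XEN cells it read 0.0485 and 0.0923 RPM, -2.55 ± 0.40 against 8h (limma, adjusted p = 4.6e-09).

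**Figure D2:**
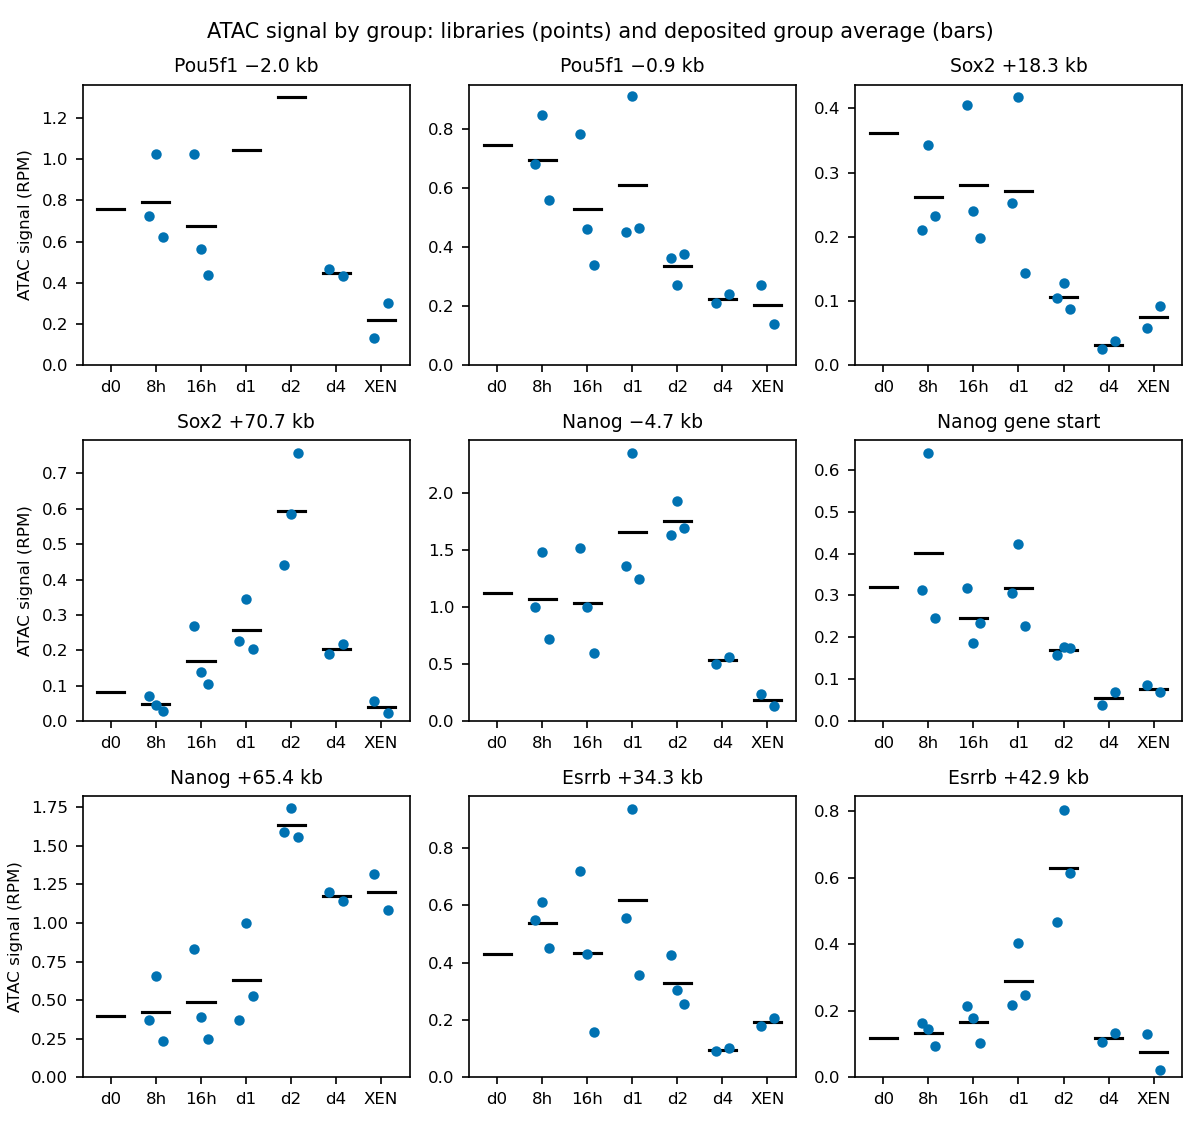
ATAC signal (RPM, vertical axis, from 0) of 9 member regions by group (horizontal axis); points are recovered libraries, spread sideways in library order, and bars the deposited group averages, which for d0, and for Pou5f1 -2.0 kb also at d1 and d2, have no library values. At the Nanog gene start the d4 libraries (0.0402 and 0.0695 RPM) lie below all those from 8h to d2 and overlap the XEN libraries (0.0867 and 0.0693 RPM), while at Sox2 +70.7 kb and Esrrb +42.9 kb the d2 libraries stand highest.

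At Nanog, the homeobox factor that opposes GATA6 in the blastocyst, the gene start fell. Of the 11 regions within Slc2a3, 4 rose, 1 fell and 6 were not called at d4 (31.1% of all regions rose and 6.42% fell). The region over the Nanog gene start (chr6:122707248-122707684) carries the strongest OCT4:SOX2 match of the members and a weak GATA6 match. Its libraries read 0.314, 0.639 and 0.247 RPM at 8h, 0.157, 0.176 and 0.174 at d2, and 0.0402 and 0.0695 at d4. No 2 of these groups overlapped. The change was -1.005 ± 0.34 at d2 (SE; limma, adjusted p = 0.0083) and -2.26 ± 0.38 at d4 (limma, adjusted p = 5.6e-08).

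Nanog -4.7 kb (chr6:122702449-122703147), at the known upstream enhancer of the gene, had the second highest RPM of the members at d0 and its highest average at d2. Its libraries read 1.00, 1.49 and 0.726 RPM at 8h, 1.64, 1.93 and 1.69 at d2, and 0.508 and 0.566 at d4. The d2 libraries were above and the d4 libraries below all those of 8h. The d2 change against 8h was 0.75 (limma, adjusted p = 0.070), not called, and it was -0.020 when centred. The fall from d2 to d4 was -1.65 ± 0.40 (SE; limma, adjusted p = 0.0021), whereas d4 against 8h gave -0.90 ± 0.41 (limma, adjusted p = 0.055), not called. When centred, the d4 change against 8h was -1.45 and called lower (limma, adjusted p = 4.8e-07). The XEN libraries, 0.239 and 0.139 RPM, were lower again (-2.31 ± 0.41 against 8h, limma, adjusted p = 2.1e-07).

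Of the other 19 Nanog members, 5 rose and 2 fell at d4, beside 31.1% and 6.42% of all regions. The rises were at -63.9, +44.3, +65.4, +74.3 and +78.4 kb, with changes of 1.09 to 1.52, and of these +44.3 kb was of the class with PTFs at d0 and the other 4 of the ectopic class. Nanog +65.4 kb (chr6:122772400-122773410), an Slc2a3 intron with 6 GATA6 matches, read 0.370, 0.653 and 0.237 RPM at 8h, 1.59, 1.74 and 1.56 at d2, 1.20 and 1.14 at d4, and 1.32 and 1.09 in XEN cells. All libraries of d2, d4 and XEN were above those of 8h, by 1.99 ± 0.36 at d2 (SE; limma, adjusted p = 2.1e-07), 1.52 ± 0.40 at d4 (limma, adjusted p = 0.000681) and 1.55 ± 0.40 in XEN cells (limma, adjusted p = 0.000606). It and +74.3 kb were the 2 members called higher in XEN cells.

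Nanog +44.3 kb (chr6:122751459-122752210), the one member with the octamer ATGCAAAT beside its GATA6 summit, read 0.183, 0.1504 and 0.133 RPM at 8h, 0.551, 0.957 and 0.799 at d2, and 0.452 and 0.454 at d4 (1.39 ± 0.39 SE, limma, adjusted p = 0.0014). Nanog -63.9 kb (chr6:122643153-122643988), late and closed at d0, went from 0.117, 0.108 and 0.0475 RPM at 8h to 0.256 and 0.299 at d4 (1.40 ± 0.38 SE, limma, adjusted p = 0.00095). Neither group pair overlapped. In XEN cells these regions read 0.194 and 0.162 RPM, and 0.163 and 0.139 RPM, all below their d4 libraries. The 2 falls were Nanog -81.0 kb, the start of the germ-cell and pluripotency gene Dppa3 (-1.15 ± 0.38 SE, limma, adjusted p = 0.0082), and Nanog +63.1 kb (-1.30 ± 0.39 SE, limma, adjusted p = 0.0034). Nanog +58.3 kb, the member with the highest mean RPM, read 1.28, 2.07 and 1.03 RPM at 8h and 1.27 and 1.43 at d4, which overlap.

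At Esrrb, the orphan nuclear receptor of naive pluripotency, the 5 intronic members lay between +3.7 and +51.3 kb, and all were of the transient GATA6 class. Esrrb +34.3 kb (chr12:86394998-86395779), with a GATA6 match and no OCT4:SOX2 match, read 0.548, 0.611 and 0.451 RPM at 8h, 0.428, 0.305 and 0.257 at d2, and 0.0904 and 0.102 at d4. The groups did not overlap. The change at d4 was -2.16 ± 0.39 (SE; limma, adjusted p = 4.2e-07) and from d2 to d4 it was -1.49 ± 0.39 (limma, adjusted p = 0.0048). It was the only called fall of the 8 at a region without PTFs.

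The neighbouring Esrrb +42.2 and +42.9 kb rose by d2. Esrrb +42.9 kb (chr12:86403767-86404309) read 0.164, 0.146 and 0.0949 RPM at 8h, 0.468, 0.805 and 0.615 at d2, and 0.106 and 0.134 at d4, where it overlapped 8h again. The rise of 1.99 ± 0.34 (SE; limma, adjusted p = 4.9e-08) was followed by a fall of -2.11 ± 0.38 (limma, adjusted p = 2.3e-05), the largest of any member between d2 and d4. Esrrb +42.2 kb (chr12:86403097-86403579) read 0.127, 0.188 and 0.0807 RPM at 8h, 0.249, 0.553 and 0.615 at d2 (1.60 ± 0.34 SE, limma, adjusted p = 1.5e-05), and 0.301 and 0.198 at d4. Its d2 rise was under the fold required when centred (0.83) or quantile normalised (0.68). GATA6 binding at these 2 regions and at +34.3 kb fell on Oct4 knockdown. Esrrb +3.7 kb, nearest the gene start, held the highest GATA6 score of the members, 14.9, and was low throughout. It read 0.173, 0.146 and 0.0570 RPM at 8h and 0.0653 and 0.0855 at d4, which overlap (-0.48 ± 0.37 SE at d4, limma, adjusted p = 0.29). That change was -0.24 without 8h library A and -0.85 without 8h library C, and on the centred scale it was -1.02 and called lower (limma, adjusted p = 0.0019).

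Grouped by the PTF class, all 8 ectopic members were past 2-fold higher than d0 at d2 in the averages, against 78.3% of all ectopic regions, and all 7 that could be tested against 8h rose (77.1% of all ectopic regions tested). At d4, 5 of the 8 rose and 0 fell against 8h (62.5%, as against 62.1% of all ectopic regions). Of the 23 members with PTFs bound at d0, 2 rose and 7 fell at d4 (8.70% and 30.4%, as against 11.8% and 23.6% of all regions of that class). Of the 14 without PTFs, 0 rose and 1 fell, against 29.3% and 2.38% of such regions. By SOX17, the endoderm factor induced downstream of GATA6, 7 of the 23 SOX17-bound members rose and 1 fell (30.4% and 4.35%), against 56.4% and 2.13% of all SOX17-bound regions. Of the 22 unbound members 0 rose and 7 fell (31.8%), against 11.0% and 9.83% of all unbound regions. The median change of the members without PTFs was -0.23, against 0.53 over all such regions, and that of the members with PTFs at d0 was -0.39 against -0.33. These classes rest on binding in the same cells and were not independent of one another.

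**Figure D3:**
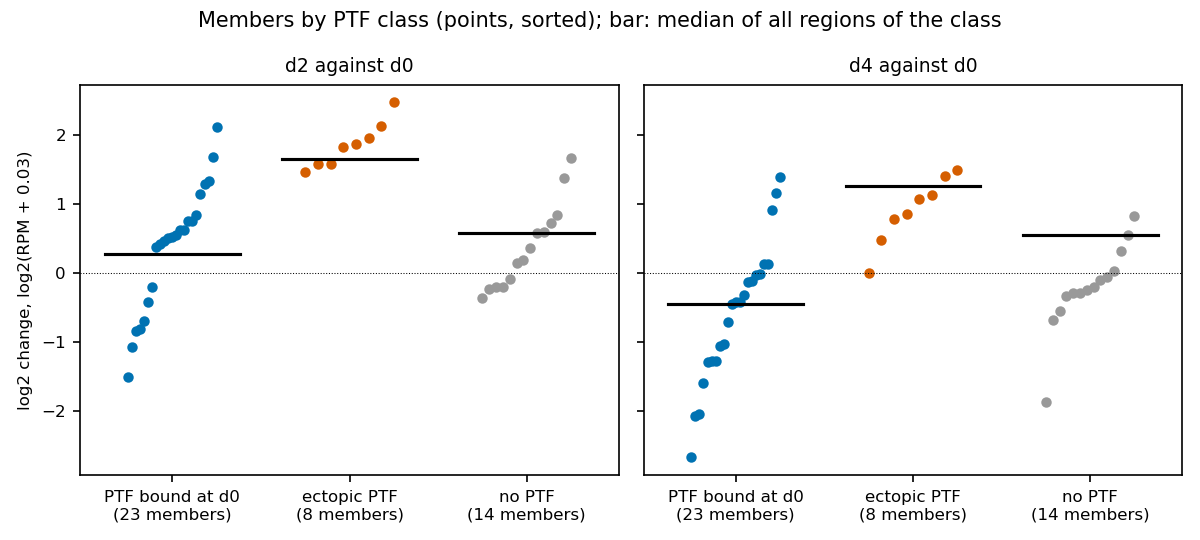
Change against d0 (log2(RPM + 0.03) of group averages, vertical axis) of the 45 members at d2 and d4, split by PTF class and sorted within it; each point is 1 region and the black bar is the median of all GATA6 regions of that class. All 8 ectopic members lie above 1 at d2, and at d4 the 23 members bound by PTFs at d0 range from -2.67 to 1.39 around the class median of -0.44.

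Lists of other genes, taken by the same 100 kb rule, give the scale. Around 16 other pluripotency genes (157 regions, of which 9 are also members), 33 of 156 rose and 17 fell at d4 against 8h (21.2% and 10.9%), with a median of 0.17. Around 16 primitive endoderm genes (227 regions), 144 rose and 2 fell (63.4% and 0.881%), with a median of 1.29. The members had a share of rises (15.6%) and a median (-0.20) below those of both lists, and a share of falls (17.8%) above both. From d2 to d4, 22 of 145 regions of the pluripotency list fell (15.2%) and 4 of 192 of the endoderm list (2.08%), beside 28.2% of the members.

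Summed over each locus, RPM went up to d2 and came back, but the share of the RPM of all regions was below d0 already at d2. The averages of the Pou5f1 members summed to 4.09 RPM at d0 and stood at 190% of that at d2, 101% at d4 and 45.1% in XEN cells. For Nanog the sum was 8.97 RPM, then 187%, 106% and 85.7%. For Esrrb it was 0.800 RPM, then 193%, 69.9% and 68.3%. For Sox2 it was 1.98 RPM, then 132%, 58.9% and 26.9%. As a share of the RPM of all regions, in parts per M, all were lower at d2 and lower again at d4. The shares at d0, d2 and d4 were 639, 553 and 389 for Pou5f1 and 309, 186 and 110 for Sox2. They were 1400, 1196 and 892 for Nanog and 125, 110 and 52.5 for Esrrb. The rise of the sums to d2 was thus smaller than that of all regions together.

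**Figure D4:**
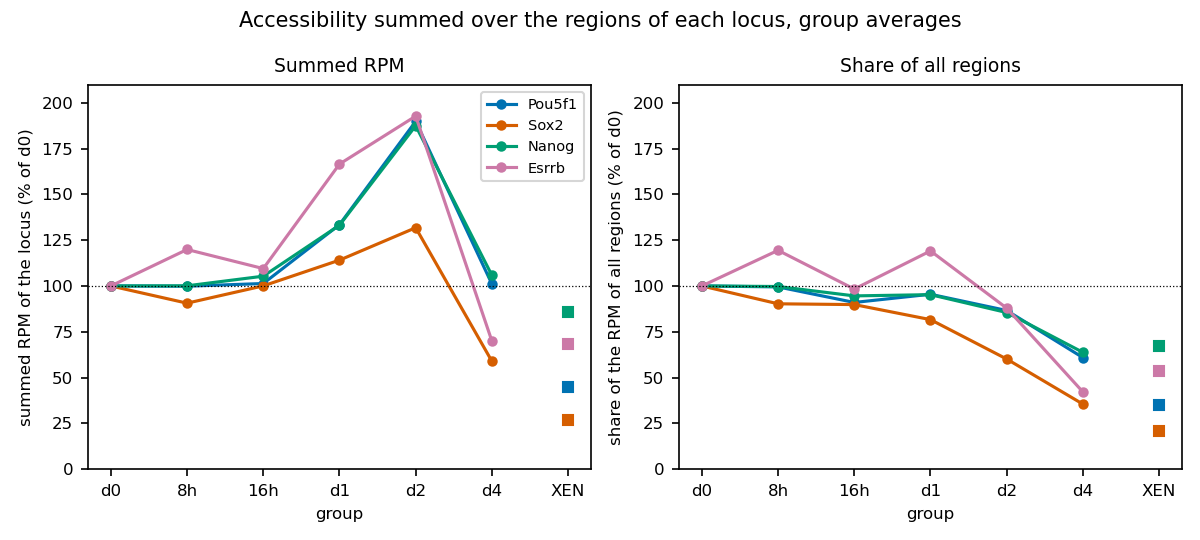
Summed RPM of the members of each locus (left) and its share of the summed RPM of all 42403 regions (right), both as a percentage of d0 (vertical axes, from 0), by group (horizontal axis); lines join the groups of induced ES cells and squares stand for XEN cells. The sums peak at d2, at 132% to 193% of d0, while the shares at d2 and at d4 are below d0 in all 4 loci.

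Over libraries, the summed RPM at Nanog was 6.40 to 12.6 at 8h, 14.3 to 18.9 at d2 and 9.12 to 9.85 at d4, so d2 stood apart from both and d4 overlapped 8h. At Sox2 the sums were 1.31 to 2.37 RPM at 8h, 2.12 to 2.90 at d2 and 1.08 to 1.25 at d4, with d4 below both others. At Esrrb they were 0.712 to 1.12, 1.25 to 1.80 and 0.540 to 0.578 RPM, and no group overlapped another. At Pou5f1 they were 3.20 to 5.42 RPM at 8h and 4.11 to 4.16 at d4, which overlap, and the d2 sum had library values for only 5 of 11 regions.

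XEN cells stood below d4 at many members. Of 45, 0 were higher than at d4 (background 6.19%) and 10 lower (22.2%, background 11.4%), 4 of them at Pou5f1, 3 at Sox2, 2 at Nanog and 1 at Esrrb. Against 8h, 2 were higher (background 26.3%) and 12 lower (26.7%, background 7.65%). The median change of XEN cells against d0 over all regions of a chromosome was 0.67 on chromosome 6, which holds Nanog, 0.42 on chromosome 3, 0.30 on chromosome 12 and 0.23 on chromosome 17. XEN cells also differ from the ES cells in strain, medium and line, which cannot be told apart from the cell type here, and without XEN library B, the shallow one, 2 members were lower than at d4 in place of 10 (4.97% of all regions in the same fit) and 1 was higher than at 8h (21.8% of all). Without d4 library A or B, 4 or 3 were lower than at d4 (4.81% and 4.11% of all).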

How the data were processed

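Reads were trimmed with cutadapt and aligned to mm10 with Bowtie2 by the authors, who dropped duplicate and poorly mapped reads, shifted ends for Tn5, and counted fragments under 100 bp in each GATA6 peak. The deposited ATAC values are RPM averaged over the libraries of a group. Motif matches are deposited as a FIMO score per region; the other deposited classes carry no unit. Of the 105 columns, 52 of other assays were not used.

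Averages were resolved into whole reads per library (1 read added by the authors to each region). Of 24993 regions stored with full precision, 99.9% or more gave whole reads in each group within 1e-07 reads; those stored with 7 digits were taken where 1 solution held a posterior of 95% or more, and 99.9% to 100% were right when known regions were rounded. In all, 40354 regions were resolved in every library. limma 3.58.1 (R 4.3.3) tested log2(RPM + 0.03), trend on, two-sided, with Benjamini-Hochberg adjustment over all regions tested; unresolved groups were dropped for that region. No d0 library could be resolved. A fold change on this scale understates low regions. In simulated libraries for d4 against 8h (40354 regions, 200 changed), the test recovered most 4-fold and few 2-fold changes. These libraries were drawn from the 8h means with a fixed dispersion and without shifts of whole libraries, whereas the real 8h libraries differed in total RPM. Hits were scored by adjusted p alone, without the fold required of a call. The simulation therefore cannot show how often the calls here are false. Sums over a locus were given without a p, since 3 against 2 libraries cannot go below 0.1. Intervals are SE of the moderated limma fit. Its spread between libraries is pooled over all groups and drawn towards that of regions of similar signal. An SE is thus not the observed spread of the libraries compared. Libraries are independent cultures by the study's methods. Region starts were read as BED and written from 1; motif positions were tested on the genome (99.9% of 11196 matches with AGATAA held it at 1 place). Gene starts and sequence came from GENCODE vM21 and GRCm38.p6 (pysam).

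Named regions: per locus, the nearest to the gene start, the highest mean, the largest rise and fall at d4 against d0, and up to 4 called at d4 against 8h. Nanog -4.7, +74.3 and +78.4 kb, Sox2 +32.9 kb, Pou5f1 -18.9, -17.5, -4.5 and -3.4 kb, Nanog -81.0 and +63.1 kb and Esrrb +42.9 kb were chosen after their values were seen. The members and gene lists were chosen with earlier results of these data known.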

Additional observations from a re-analysis of the deposited data

How the results depend on the processing

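No paired analysis was possible because the averaged columns carry no replicate numbers. Counts are members higher and lower, and they show only how the counts move with the setting. Centring takes the same amount off every region of a column or library. A count without the share of all regions in the same setting is therefore no result about the members. Against d0, a pseudocount of 0.15 RPM in place of 0.03 gave 0 higher at d1, 0 lower at d2, and 3 and 5 at d4. Centring each column on its median gave 0 higher at d1, 6 and 11 at d2, 0 higher at d4, and 1 and 23 in XEN cells, and quantile normalisation 0 higher at d1, 2 and 8 at d2, 0 and 16 at d4, and 20 lower in XEN cells. A window of 50 kb gave 1 higher at d1, 8 higher at d2, 2 and 6 at d4, and 0 and 7 in XEN cells, and one of 150 kb 16 lower at d4, and 4 and 20 in XEN cells.

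Between libraries, centring gave 1 higher at 16h, 11 lower at d2, 1 and 14 at d4, and 1 and 21 in XEN cells against 8h. Quantile normalisation gave 1 higher at 16h, 4 and 10 at d2, 1 and 15 at d4, 21 lower in XEN cells against 8h, and 1 higher in XEN cells against d4. Of all regions, centring called 13.5% lower at d2, and 16.2% higher and 15.7% lower at d4. Quantile normalisation called 12.9% higher and 8.99% lower at d2, and 15.7% higher and 15.6% lower at d4. A pseudocount of 0.006 RPM gave 3 higher at d1. Precision weights on the recovered reads (limma-voom) gave 2 higher at d1 and 2 lower in XEN cells against d4. A pseudocount of 0.15 RPM gave 0 lower at d2, 2 and 5 at d4, 5 lower for d4 against d2, 4 lower in XEN cells against d4 and 7 lower against 8h. Within 50 kb there were 0 higher at d1, 5 higher at d2, 2 and 5 at d4, 7 lower for d4 against d2, 6 lower in XEN cells against d4 and 0 higher against 8h. Within 150 kb there were 17 higher at d2, 13 lower at d4, 17 lower for d4 against d2, and 4 higher in XEN cells against 8h.

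Leaving out 1 library at a time gave 1 to 5 higher at d1 (5 without 8h library B, 3 without d1 library A), 0 to 3 lower at d2 (0 without 8h library B), 5 to 10 higher and 5 to 11 lower at d4, 1 to 11 lower for d4 against d2 (1 without d4 library A, 2 without d4 library B, 4 without d2 library C, 6 without d2 library B), 2 to 8 lower in XEN cells against d4 (2 without XEN library B, 4 or 3 without d4 library A or B), and 1 to 2 higher and 9 to 15 lower in XEN cells against 8h. A lone remaining library was assumed to vary like the other groups.

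Summed over a locus, centring took the same amount off every locus by construction (1.005 at d2 and 0.73 at d4 against 8h, and -0.27 for d4 against d2), so its effect is not particular to these loci. It turned the d2 change against 8h from a rise to -0.44 at Sox2, -0.0496 at Nanog and -0.31 at Esrrb, and gave -1.02 at Pou5f1, where the d2 sums hold 5 of 11 regions. At d4 it gave -0.68, -1.32, -0.59 and -1.48 for Pou5f1, Sox2, Nanog and Esrrb, and for d4 against d2 -0.66, -0.88, -0.54 and -1.18. Within 50 kb the Nanog sums changed by -0.34 at d4 and -1.10 against d2, and within 150 kb the Esrrb sum by -1.18 against d2. Sox2 +94.9 kb ran from -0.43 to 0.097 at d4 when 1 library was left out, with the sign changed without 8h library B, and changed sign at d2 when centred (-0.076) or quantile normalised (-0.25). Nanog +58.3 kb ran from -0.27 to 0.22 at d4, with the sign changed without 8h library B (0.22) or d4 library A (0.030), and changed sign at d2 when centred (-0.19) or quantile normalised (-0.55). The cause was not tested. Depth limits most the regions under 0.1 RPM, above all in XEN library B.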

Other observations

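Beyond 100 kb, both Sox2 and Esrrb have further GATA6 regions that the 100 kb rule left out. At Sox2, 3 regions at +106.5, +107.7 and +110.6 kb lie in the distal control region known to drive Sox2 in ES cells, and all were transient and bound by PTFs at d0. Their averages were 0.626, 0.497 and 1.07 RPM at d0 and 0.187, 0.0674 and 0.207 at d4, and in XEN cells 0.157, 0.0612 and 0.140. With them the Sox2 sum at d4 was 39.0% of d0, in place of 58.9%.

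At Esrrb, 8 of the 9 added regions lie between +109.9 and +140.7 kb within the gene. Of these, Esrrb +140.7 and +137.9 kb went from 0.851 and 0.545 RPM at d0 to 0.110 and 0.105 at d4, and +119.6 kb went from 0.563 to 1.58 at d2 and 0.899 at d4. Esrrb +112.6 kb, of the ectopic PTF class, read 0.143 RPM at d0, 0.524 at d2 and 0.132 at d4. These values are averages, with no test.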
